A study of Mus musculus with 9 samples.

Results

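The genes described here encode the core of the basement membrane and the proteins that help collagen to fold. They were chosen by name: Col4a1 and Col4a2, Lama1, Lamb1 and Lamc1, Nid1, Hspg2, Sparc, Serpinh1 and P4ha2. All 10 were found among the 18193 genes that the array names with a probe set of 1 gene symbol, and 21 probe sets carry their symbols. RNA of D3-pOct4 mouse embryonic stem cells had been hybridised to 9 Affymetrix Mouse Genome 430 2.0 arrays. The cells were grown in serum-containing medium and kept in 1 of 3 conditions for 7 days. Cultures of the donor group had no leukemia inhibitory factor (LIF) and received 2 µM of the slow nitric oxide donor DETA/NO. Cultures of the no LIF group had neither the donor nor LIF. Cultures of the LIF group received 1000 U/ml of LIF, a cytokine used to hold these cells undifferentiated. Each group has 3 arrays, and replicates 1, 2 and 3 came from passages 31, 33 and 34 of the same line. The labels do not say how far the cultures were otherwise separate, so p-values measure only the spread between these arrays.

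A basement membrane is a thin sheet of matrix on which epithelial cells sit. Laminin trimers of an alpha, a beta and a gamma chain assemble at the cell surface, a network of type IV collagen forms beside them, and nidogen and perlecan join the layers. In the early mouse embryo, parietal endoderm lays down a thick membrane of this kind, Reichert's membrane, and embryonic stem cells can give rise to endoderm that makes the same proteins. Type IV collagen is built in the endoplasmic reticulum, where prolyl hydroxylases modify its chains and the chaperone HSP47 holds its triple helix. Serpinh1 and P4ha2 encode such proteins of the endoplasmic reticulum and are not themselves matrix components.

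Some arrays stood apart from their groups before any member was considered. No LIF replicate 1 and donor replicate 3, of different groups and passages, had the most similar profiles of the 36 pairs of arrays. Their log2 signals correlated at r = 0.977 over the 29811 probe sets tested, against 0.951 for the next pair. These arrays are called the alike pair below. Socs3, a gene switched on by LIF through STAT3, read 95.8, 405 and 127 on donor replicates 1 to 3, 102, 3054 and 329.8 on no LIF replicates 1 to 3, and 3213, 282 and 1794 on LIF replicates 1 to 3. The arrays labelled no LIF replicate 2 and LIF replicate 2 thus went against their labels for this gene. The results keep all arrays under their labels, and the medians are also given without these arrays or without the alike pair.

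Col4a1 and Col4a2 encode the alpha 1 and alpha 2 chains, which join in 1 heterotrimer, the main type IV collagen of most basement membranes. In RefSeq on the GRCm38.p6 build, their start sites on chromosome 8 are 21 bases apart on opposite strands. The promoter windows run from 250 bases before to 50 bases after each start site, chr8:11312777-11313076 on the minus strand for Col4a1 and chr8:11312555-11312854 on the plus strand for Col4a2. They are shown because these windows overlap: each gene is read across the start site of the other, on opposite strands. Capitals mark the 78 bases that both windows hold, written on opposite strands, and each line runs 5′ to 3′.
Col4a1: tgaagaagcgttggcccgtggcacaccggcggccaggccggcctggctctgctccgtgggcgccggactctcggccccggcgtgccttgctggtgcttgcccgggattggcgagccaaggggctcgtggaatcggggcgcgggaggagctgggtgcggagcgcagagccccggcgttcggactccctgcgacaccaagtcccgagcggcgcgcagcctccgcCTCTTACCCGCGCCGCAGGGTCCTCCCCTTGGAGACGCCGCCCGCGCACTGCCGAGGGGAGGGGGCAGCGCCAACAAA
Col4a2: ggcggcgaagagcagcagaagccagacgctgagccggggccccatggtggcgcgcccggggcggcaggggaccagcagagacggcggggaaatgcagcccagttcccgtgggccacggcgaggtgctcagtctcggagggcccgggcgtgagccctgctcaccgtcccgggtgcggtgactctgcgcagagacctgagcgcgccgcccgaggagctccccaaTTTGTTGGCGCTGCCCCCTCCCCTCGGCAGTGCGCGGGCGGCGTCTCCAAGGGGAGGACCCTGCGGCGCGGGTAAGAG
Both genes had their lowest signals on the same arrays. Col4a1 read 763, 819 and 220.3 on donor replicates 1 to 3, 227, 916 and 981 on no LIF replicates 1 to 3, and 912, 683 and 2786 on LIF replicates 1 to 3. Col4a2 read 241, 323 and 73.3 on the donor arrays, 79.8, 327 and 417 on the no LIF arrays and 369, 361 and 1138 on the LIF arrays, in the same replicate order. LIF replicate 3 was highest and donor replicate 3 and no LIF replicate 1 were lowest for both chains. The donor and LIF groups overlapped for Col4a1 and did not for Col4a2, where the highest donor array lay below the lowest LIF array. Over the 9 arrays the log2 signals of these chains correlated at r = 0.986, the highest of the 45 pairs of member genes, and at 0.947 over the 7 arrays without the alike pair. The arrays shared cell line, platform and scaling, and the correlation is given as a description.

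The laminin chains followed next, in the order alpha, beta and gamma. Lama1, Lamb1 and Lamc1 encode the chains of laminin-111, the laminin of the early embryo. Lama1 read 368, 141 and 78.2 on donor replicates 1 to 3, 85.4, 1108 and 343 on no LIF replicates 1 to 3, and 1311, 164 and 2976 on LIF replicates 1 to 3. Its highest array stood 38.1 times above its lowest, the widest range of the 10 genes. The arrays LIF replicate 3, LIF replicate 1 and no LIF replicate 2 were high, and the lowest of these lay 3.01 times above the next array. All groups overlapped. Lamb1 read 1682, 1541 and 859.6 on the donor arrays, 852, 1182 and 1668 on the no LIF arrays and 1097, 1060.2 and 3132 on the LIF arrays. This beta chain varied least, by 3.67 times from its lowest to its highest array, and only LIF replicate 3 stood well above the rest. Lamc1, whose gamma 1 chain is shared by most laminins, read 821, 412 and 222 on the donor arrays, 244, 1004 and 710.2 on the no LIF arrays and 1385, 550.2 and 1723 on the LIF arrays. It followed Lama1 more than Lamb1: log2 signals of Lamc1 and Lama1 correlated at r = 0.963 over 9 arrays and at 0.974 without the alike pair.

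Nid1 and Hspg2 encode the proteins that connect the laminin and collagen layers. Nid1, or nidogen-1, binds the laminin gamma 1 chain and read 1188, 344 and 68.3 on donor replicates 1 to 3, 60.4, 1555 and 985 on no LIF replicates 1 to 3, and 1787, 323 and 1838 on LIF replicates 1 to 3. The high and low arrays were found in every group, and the range was 30.5-fold. Hspg2, which encodes the heparan sulfate proteoglycan perlecan, read 635, 449.5 and 88.2 on the donor arrays, 75.2, 354 and 706 on the no LIF arrays and 549, 388 and 666 on the LIF arrays. Here the alike pair alone was low, and the next array lay 4.01 times above the higher of the pair. On the other 7 arrays the ranges of the 3 groups overlapped.

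Sparc is a secreted glycoprotein that binds collagen IV and is abundant in parietal endoderm. Its signal was 1729, 2157 and 942 on donor replicates 1 to 3, 997, 2412 and 3736 on no LIF replicates 1 to 3, and 3262, 2624 and 5512 on LIF replicates 1 to 3. All LIF arrays lay above all donor arrays, while the no LIF arrays overlapped with both groups. Serpinh1, which encodes HSP47, read 1416, 973 and 371 on the donor arrays, 412, 1578 and 2534 on the no LIF arrays and 1985, 2321 and 3512 on the LIF arrays. Again the donor and LIF groups did not overlap and the no LIF arrays reached into both. P4ha2, a catalytic alpha subunit of prolyl 4-hydroxylase, read 177, 214 and 68.9 on the donor arrays, 52.9, 388 and 689.5 on the no LIF arrays and 463, 144 and 686 on the LIF arrays. For P4ha2 LIF replicate 2 was lowest after the alike pair, so the donor and LIF groups overlapped.

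**Figure D1:**
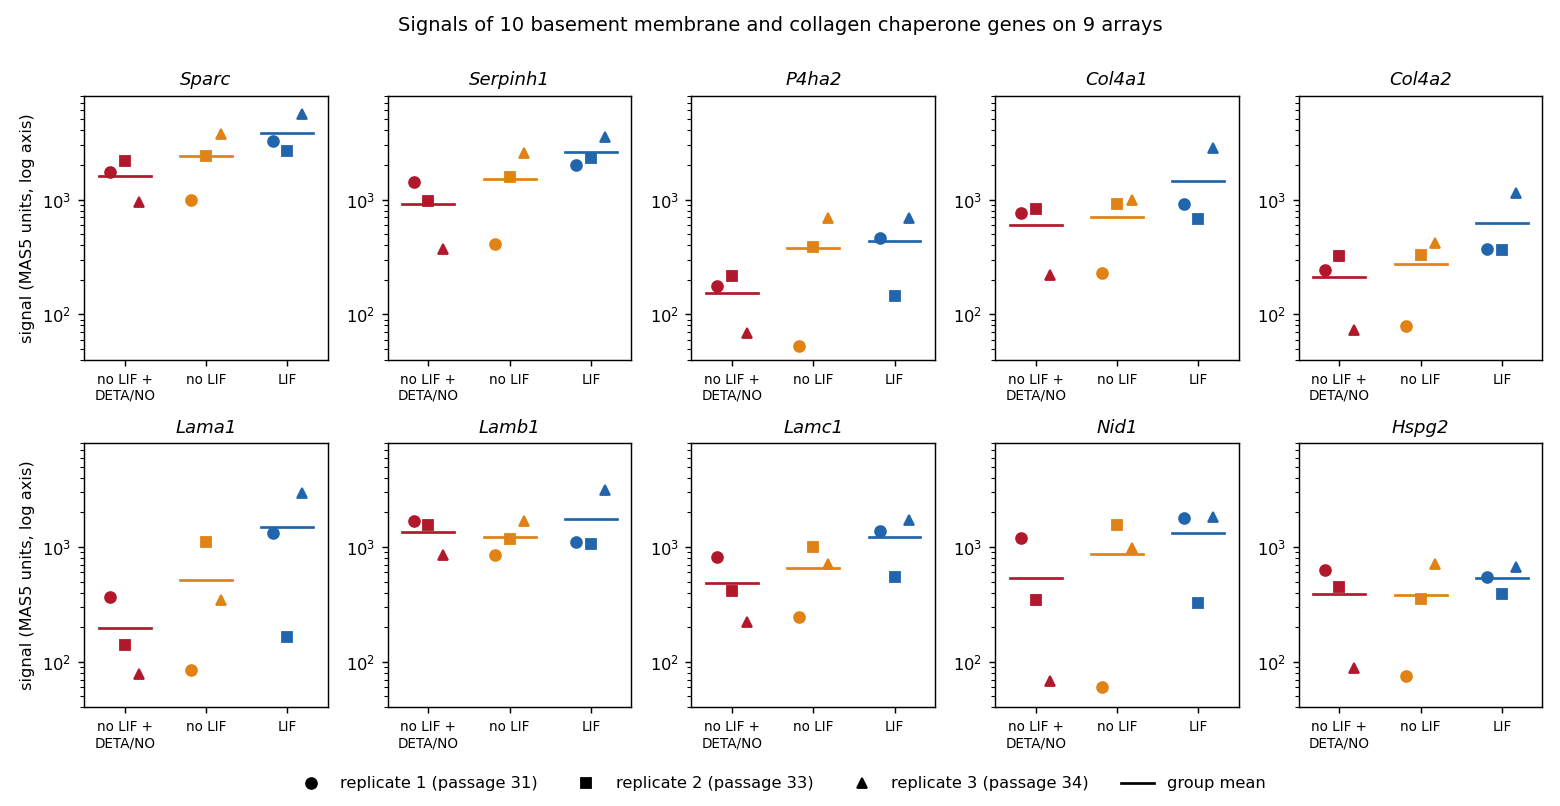
Signal of the 10 genes on each array (vertical log axis, MAS5 units), with donor, no LIF and LIF groups along the horizontal axis, the point shape giving the replicate and a line the group mean. In every panel donor replicate 3 and no LIF replicate 1 are the lowest points, and LIF replicate 3 is the highest in 8 of 10 panels.

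The array-to-array pattern was common to the members. The alike pair held the 2 lowest signals in 10 of 10 genes, and the same held for 17.3% of the 29790 other tested probe sets. LIF replicate 3 was highest in 8 of 10 genes, and for 5.13% of the other tested probe sets. No LIF replicate 3 was highest for Hspg2 and P4ha2, where LIF replicate 3 was close behind. With each gene's log2 signals scaled to mean 0 and SD 1 over the arrays, the mean of the members was 0.15, -0.12 and -1.43 on donor replicates 1 to 3, -1.43, 0.35 and 0.57 on no LIF replicates 1 to 3, and 0.56, -0.09 and 1.42 on LIF replicates 1 to 3. The mean thus took its lowest value in both groups without LIF, on 1 array of each. The ratio of 3' to 5' signal of beta-actin, a measure of RNA integrity, was 1.62 and 1.52 on donor replicate 3 and no LIF replicate 1, the lowest 2 of the 9 arrays, and 1.81 to 3.15 on the rest. Gapdh, read in the same way, ran only from 0.812 to 0.955. The part of RNA quality and of array brightness in the members' pattern was not tested.

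**Figure D2:**
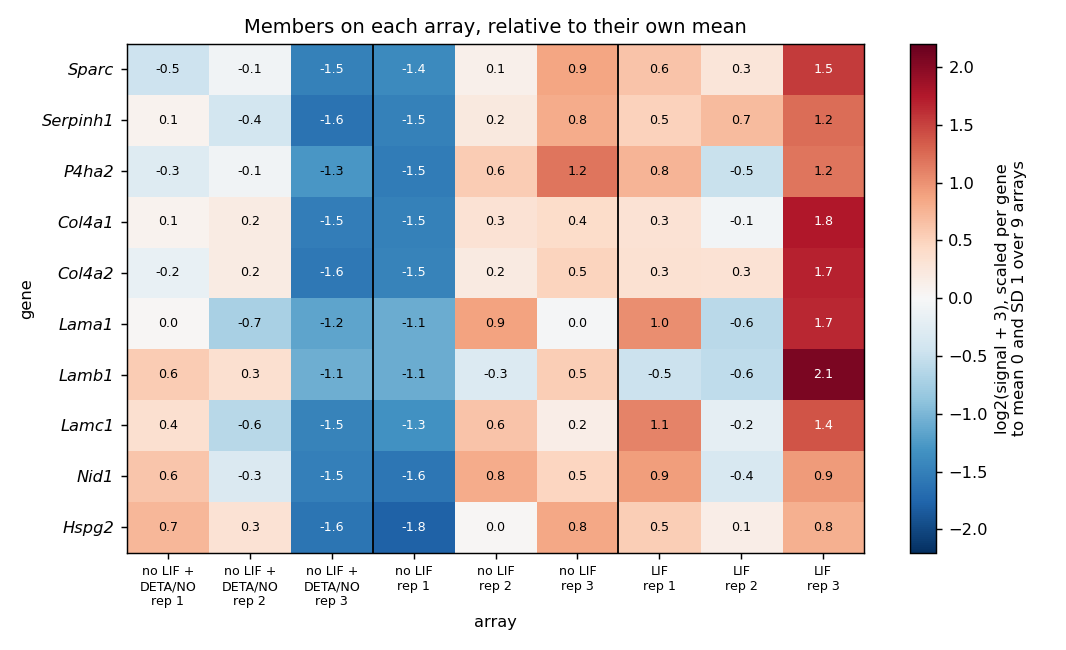
Log2(signal + 3) of each gene scaled to mean 0 and SD 1 over the 9 arrays (colour and printed value), with genes in rows and arrays in columns, the donor group left, no LIF in the middle and LIF right. The columns of donor replicate 3 and no LIF replicate 1 are blue in every row, and that of LIF replicate 3 is red in every row.

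Within this common pattern the members differed in which arrays were high. Lama1, Lamc1 and Nid1 had the same 3 highest arrays, LIF replicates 1 and 3 and no LIF replicate 2, as did 3.54% of the other tested probe sets. These were also the arrays with the highest Socs3. Sparc, Col4a2 and P4ha2 were highest on LIF replicates 1 and 3 and no LIF replicate 3, a set found for 0.802% of other probe sets. Lamb1 and Hspg2 shared LIF replicate 3, no LIF replicate 3 and donor replicate 1, found for 0.463%. Each set was read off the data, and a link to Socs3 was not tested. Over all 45 pairs of members the correlation of log2 signals ran from 0.653 to 0.986, with a median of 0.868, over 9 arrays. Without the alike pair it ran from 0.278 to 0.974 with a median of 0.613, over 7 arrays. With the mean of the other 9 members, Lamb1 had the lowest correlation, 0.775, and Col4a1 the highest, 0.978. Without the alike pair the lowest was that of Hspg2, 0.536, then that of Lamb1, 0.625, and Col4a1 was again highest at 0.917.

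The first comparison asked what 7 days without LIF did to these genes. No member passed the test: 0 of 21 probe sets had a limma adjusted p under 0.05, against 0% of the 29811 tested probe sets. At an unadjusted p under 0.05 the members again counted 0, against 1.54% of all. That count was 5 without LIF replicate 2 (5.88% of all), 3 without no LIF replicate 2 (2.24%), 2 without no LIF replicate 3 (1.35%) and 6 without both doubted replicate 2 arrays (8.2%). All 10 genes lay lower without LIF, by a median of -1.0 on the log2 scale against -0.10 for all tested probe sets, of which 57.3% lay lower. The size was within the spread between arrays for each gene, with a limma adjusted p of 0.973 throughout. In bulk RNA, fewer cells of a type and less RNA per cell cannot be told apart.

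Among the matrix proteins, Col4a1 averaged 708 ± 418 without LIF and 1460.0 ± 1154 with LIF (SD, n = 3 each), a log2 difference of -1.02 (SE 0.73). Col4a2 averaged 275 ± 175 without LIF and 623 ± 446 with LIF, at -1.25 (SE 0.74). Lama1 had the largest difference, -1.42 (SE 1.11), with means of 512 ± 532 without LIF and 1484 ± 1414 with LIF. The SD of Lama1 was thus close to its mean in both groups. The differences were -0.97 (SE 0.64) for Lamc1, -1.15 (SE 1.28) for Nid1, -0.96 (SE 0.84) for Hspg2 and -0.37 (SE 0.47) for Lamb1. For Sparc the difference was -0.80 (SE 0.50), and for the endoplasmic reticulum proteins it was -1.10 (SE 0.66) for Serpinh1 and -0.55 (SE 0.89) for P4ha2. No member probe set had groups that did not overlap, while 4.72% of all tested probe sets lay wholly lower without LIF and 2.88% wholly higher.

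Taken by passage, the median of the 10 genes was -2.38 in passage 31, 0.29 in passage 33 and -0.90 in passage 34, each from 1 array against 1. Passage 31 includes no LIF replicate 1 of the alike pair, and passage 33 holds the arrays whose Socs3 went against their labels. Without the alike pair the median was -0.30, and Nid1 and P4ha2 turned to 0.28 and 0.52. Without the doubted replicate 2 arrays it was -1.64, all 10 genes stayed lower without LIF, and 8 of 21 probe sets lay wholly lower, against 27.8% of all tested probe sets in that fit of 2 arrays against 2. The smallest limma adjusted p of a member in any setting of this comparison was 0.553.

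The second comparison asked what the donor added in the absence of LIF. Again 0 of 21 member probe sets passed at a limma adjusted p under 0.05, against 0% of all, and 0 had an unadjusted p under 0.05, against 5.02% of all. That count was 3 without no LIF replicate 1 (7.47% of all), 1 without donor replicate 3 (14.4%) or without LIF replicate 2 (5.48%), and 2 without both doubted replicate 2 arrays (3.41%). Lamb1 and Hspg2 lay higher with the donor and the other 8 genes lower, by a median of -0.43 against 0.08 for all tested probe sets. The differences were smaller than their standard errors for all 10 genes. Lama1 averaged 196 ± 152 with the donor and 512 ± 532 in its absence (SD, n = 3 each), a log2 difference of -0.99 (SE 1.11). P4ha2 averaged 153 ± 75.3 with the donor and 377 ± 318 in its absence, at -0.81 (SE 0.89). Lamb1 averaged 1361 ± 439.9 with the donor and 1234 ± 410.1 in its absence, at 0.14 (SE 0.47).

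The passages pointed in opposite ways for this comparison. The median of the 10 genes was 1.74 in passage 31, where no LIF replicate 1 is the low array, and -2.30 in passage 34, where donor replicate 3 is, with -0.43 in passage 33. Without these 2 arrays the median was -0.59, and without the doubted replicate 2 arrays it was -0.01. A single probe set, the dimmest of the 4 of Lamb1, lay wholly higher with the donor, at 22, 16.3 and 6.78 on the donor arrays against 6.27, 6.13 and 0.765 on the no LIF arrays. On 5 of 9 arrays it was below the 40th percentile of its array, and 6.4% of all tested probe sets lay wholly higher with the donor. None of the members' probe sets lay wholly lower, against 2.52% of all.

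The third comparison set the donor without LIF against LIF and so combined both changes. It shares arrays with the first and second and is not independent of them. The members lay lower with the donor in 10 of 10 genes, by a median of -1.36 against 0.02 for all tested probe sets, and 0 of 21 probe sets passed at a limma adjusted p under 0.05, against 0% of all. Serpinh1 averaged 919.9 ± 524 with the donor and 2606 ± 802 with LIF (SD, n = 3 each), a log2 difference of -1.66 (SE 0.66). Sparc averaged 1609 ± 616 with the donor and 3799 ± 1517 with LIF, at -1.25 (SE 0.50). The unadjusted limma p was 0.0294 for Serpinh1 and 0.0312 for Sparc, and the adjusted p was 1 for every member. Together with a further Sparc probe set these made 3 of 21 probe sets at an unadjusted p under 0.05, against 1.94% of all, and the count moved with the setting. It was 0 without donor replicate 3 or without LIF replicate 3, 7 without no LIF replicate 1 or with the 3 arrays of highest median signal as a block, and 6 with median centring or only these 2 groups in the fit, where the shares of all were 0.865% to 5.54%.

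The remaining differences between the donor and LIF groups were -2.41 (SE 1.11) for Lama1, -1.73 (SE 1.28) for Nid1, -1.56 (SE 0.74) for Col4a2, -1.37 (SE 0.64) for Lamc1 and -1.36 (SE 0.89) for P4ha2. Col4a1 stood at -1.21 (SE 0.73), Hspg2 at -0.82 (SE 0.84) and Lamb1 at -0.24 (SE 0.47). The donor arrays lay wholly below the LIF arrays for 5 of 21 probe sets, 2 of Sparc, 2 of Serpinh1 and the one of Col4a2, against 3.19% of all tested probe sets. Probe sets of 1 gene read the same RNA and are not independent. Wholly higher were 0 of 21, against 2.79% of all. By passage the median was -0.60, -0.04 and -3.25 in passages 31, 33 and 34, and passage 34 sets donor replicate 3, of the alike pair, against LIF replicate 3, the highest array. Without the alike pair the median was -0.89, and without the doubted replicate 2 arrays it was -1.78.

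**Figure D3:**
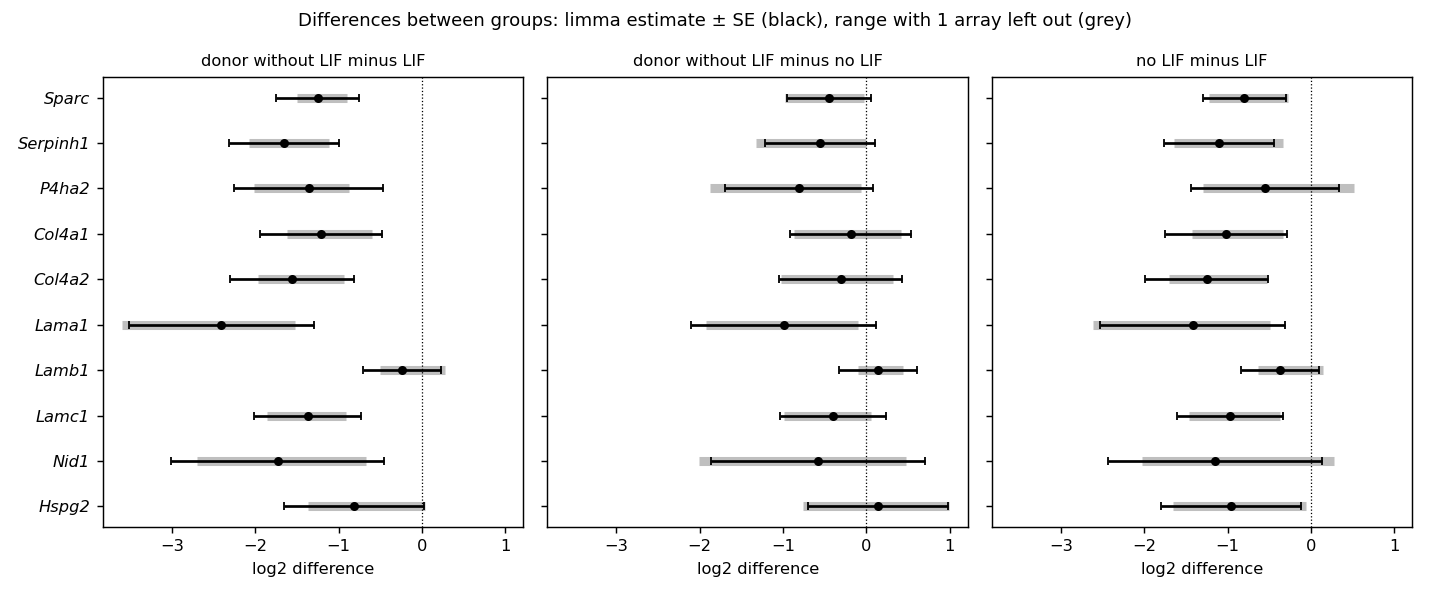
Log2 difference of each gene (horizontal axis) in the comparisons of the donor with LIF, of the donor with no LIF and of no LIF with LIF, with limma estimates as points, SE as black bars and the range over fits with 1 array left out in grey. The donor and LIF groups differ by -2.41 to -0.24, and the grey range reaches past 0 for Lamb1 and Hspg2.

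The other probe sets of the members repeated the sign in most cases. The further probe sets of Serpinh1 and Col4a1, and the second of Sparc, took the sign of the brightest in all 3 comparisons, at -1.13, -0.38 and -1.50 for Serpinh1 in the order no LIF minus LIF, donor minus no LIF and donor minus LIF. The dimmest probe set of Sparc went the other way, at 0.33, 0.29 and 0.62, and was below the 40th percentile on 5 of 9 arrays. The second probe sets of Lamc1 and Nid1 differed from the brightest only in the comparison of the donor with no LIF, at 0.27 and 0.50, and that of Hspg2 at -0.44. A dim further probe set of Nid1 also stood higher with the donor there, at 1.48. The 2 further bright probe sets of Lamb1 took its sign in all 3 comparisons. Of all 21 probe sets, 20 lay lower without LIF than with it and 19 lay lower with the donor than with LIF. With the donor 9 lay higher and 12 lower than without LIF alone.

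The next question was whether other genes of the same machinery showed the same pattern. Of 20 further genes for collagen modification and secretion, 17 were tested. The alike pair held the 2 lowest signals in 14 of 17, against 17.3% of other tested probe sets. LIF replicate 3 was highest in 7 of 17, against 5.13% of other tested probe sets. The brightest were P4hb, the beta subunit of prolyl 4-hydroxylase, and Ppib, a prolyl isomerase that acts on collagen. P4hb read 3745, 3679 and 1892 on the donor arrays, 1748, 4157 and 5453 on the no LIF arrays and 4011, 2657 and 5039.6 on the LIF arrays. Ppib read 5036, 4786 and 2311 on the donor arrays, 2282, 4873 and 4887 on the no LIF arrays and 5838, 2889 and 4938 on the LIF arrays. Both were thus also lowest on no LIF replicate 1 and, after it, donor replicate 3. None of the 17 genes was called, and 15 lay lower without LIF than with it, by a median of -0.44.

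Other basement membrane genes were less uniform. Of 18 genes 14 were tested, 0 were called, and 6 had the alike pair as their 2 lowest arrays. LIF replicate 3 was the highest array for 1 of 14. Some of the 14 were dim, with mean signals of 7.85 for Smoc2, 9.69 for Col4a6 and 10.6 for Lamc3. The members averaged 320.3 to 2597 over the 9 arrays. The part of dim signal in the lower uniformity was not tested. The median was -0.17 for no LIF against LIF, with 10 of 14 lower, 0.14 for the donor against no LIF, with 5 of 14 lower, and -0.15 for the donor against LIF, with 10 of 14 lower. Nid2, the second nidogen, read 2720.2, 1928 and 591 on the donor arrays, 634, 1810.2 and 1759.8 on the no LIF arrays and 1979, 993 and 2145 on the LIF arrays. It shared the low pair with Nid1, and donor replicate 1 was its highest array. Col18a1, a collagen with heparan sulfate chains, read 3407, 3664 and 684 on the donor arrays, 729, 593 and 3316 on the no LIF arrays and 484, 1797 and 1069 on the LIF arrays. Its 3 high arrays were donor replicates 1 and 2 and no LIF replicate 3, of which no LIF replicate 3 was also among the 3 highest of Col4a1 and Col4a2. Its log2 difference between the donor and LIF was 1.06 (SE 0.80, limma adjusted p = 1).

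Receptors for these matrix proteins were measured too. Of 10 genes 8 were tested, 0 were called, and 5 were lowest on the alike pair. LIF replicate 3 was the highest array for 1 of 8. Itga6, the alpha 6 integrin that binds laminin, read 3021, 1745 and 359.7 on the donor arrays, 359.6, 2189 and 1738 on the no LIF arrays and 3643, 1608 and 3096 on the LIF arrays. Dag1, or dystroglycan, read 2141, 2345 and 602 on the donor arrays, 566, 1538 and 1798 on the no LIF arrays and 1422, 1467 and 1704 on the LIF arrays. Signals on the alike pair were far below those on the other 7 arrays for both receptors.

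Genes with the most similar profile were sought among 8208 other genes of at least median signal. The highest correlations with the mean of the scaled members over 9 arrays were those of Bcap31 (0.972), Plod1 (0.97) and Calu (0.968). Bcap31 is a membrane protein of the endoplasmic reticulum, Plod1 a lysyl hydroxylase of collagen and Calu, calumenin, a calcium-binding protein of the secretory pathway. Next came Itm2b, Pvr, Lncenc1, Mfge8, Plet1, Pqlc3 and Tmem231, at 0.964 to 0.957. Over the 7 arrays without the alike pair, the correlation of Bcap31 was 0.879, below those of Pqlc3 (0.958) and Calu (0.895). The lowest of the genes named here was then that of Tmem231, at 0.81.

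The members are known from parietal endoderm, and markers of the cell types that could make them were read on the same arrays. Of 16 regulators and markers of primitive and parietal endoderm 14 were tested and 0 were called. Their summed signal, 1082, 1960.1 and 1655 on donor replicates 1 to 3, 1458, 1003 and 2115 on no LIF replicates 1 to 3, and 820.0, 1679 and 2814 on LIF replicates 1 to 3, was not lowest on the alike pair, and 2 of 14 genes had that pair as their 2 lowest arrays. On the alike pair most of that sum came from its 2 brightest genes, Krt19 and Fst. On LIF replicate 3 they gave only 289.5 and 38 of 2814. Leaving these out, a step added after their values were seen, the sum was 596, 617 and 453 on the donor arrays, 418, 822 and 596 on the no LIF arrays and 654, 882 and 2487 on the LIF arrays, lowest on the alike pair and highest on LIF replicate 3. LIF replicate 3, the highest array for most members, was highest for 9 of 14. Among these, picked after their values were seen, Gata6, which drives primitive endoderm, read 50.6, 50.7 and 36.7 on the donor arrays, 39.2, 108 and 32.9 on the no LIF arrays and 129, 64.4 and 439 on the LIF arrays. Pdgfra, a receptor of primitive endoderm, read 41.2, 52 and 33.4 on the donor arrays, 32.3, 109.6 and 23.3 on the no LIF arrays and 96.4, 62.8 and 509 on the LIF arrays. Both shared with most members the highest signal on LIF replicate 3, and LIF replicate 1 and no LIF replicate 2 came next. Unlike the members, both were lowest on no LIF replicate 3, at 32.9 and 23.3, followed by the alike pair. No LIF replicate 3 was among the 3 highest arrays for 7 of 10 members. Krt19, a keratin, and Fst, an activin-binding protein, were neither highest on LIF replicate 3 nor lowest on the alike pair. Krt19 read 318, 860.0 and 647 on the donor arrays, 446, 144 and 1485 on the no LIF arrays and 81.4, 589 and 289.5 on the LIF arrays. Fst read 168, 483 and 554 on the donor arrays, 594, 36.8 and 34.1 on the no LIF arrays and 84.4, 209 and 38 on the LIF arrays, so that it was highest on the alike pair.

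Of 10 visceral endoderm markers, 6 were tested and 0 called. The serum protein genes Afp, Ttr and Apoa1 were below the 40th percentile of the array on 8, 8 and 9 of 9 arrays, and Apob on 6. Rbp4, of the same list, was below it on 0 arrays and was highest on the alike pair. It read 46.1 on donor replicate 3 and 49.9 on no LIF replicate 1, against 20.5 to 38.4 on the rest. The receptor genes Cubn and Amn were brightest, and Cubn read 173, 80.1 and 41.5 on the donor arrays, 27.4, 244 and 96.9 on the no LIF arrays and 120.3, 122 and 687 on the LIF arrays. It too was highest on LIF replicate 3 and lowest on the alike pair. The summed signal of the list was 146 to 389 on the donor arrays, 149.7 to 561 on the no LIF arrays and 235 to 1223 on the LIF arrays. That sum was lowest on the alike pair and highest on LIF replicate 3. The alike pair held the 2 lowest signals in 3 of 6 genes. Without Amn and Cubn the sum was lowest on LIF replicate 2, at 46.1, against 75.1 and 73.6 on the alike pair.

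Fibroblasts also secrete Sparc and collagen IV. Of 13 markers, 6 were tested and 0 called, and 2 of 6 had the alike pair as their 2 lowest arrays. The brightest were Pdgfrb, a growth factor receptor of mesenchyme, and Thy1, a surface protein. Pdgfrb read 66.3, 136 and 17.1 on the donor arrays, 17.6, 217 and 151 on the no LIF arrays and 235, 60.6 and 201 on the LIF arrays. It was lowest on the alike pair, as the members were, and highest on LIF replicate 1, no LIF replicate 2 and LIF replicate 3. Thy1 read 27.6, 50.1 and 35.1 on the donor arrays, 38.4, 94.5 and 24 on the no LIF arrays and 84.7, 30.2 and 93.3 on the LIF arrays. Among the matrix genes of this list, Postn, Lum and Col5a2 were below the 40th percentile on 9 of 9 arrays, Dcn on 8 and Col3a1 on 7. Col1a1 was below it on 4, Col6a1 on 2 and Col1a2 on 1, at mean signals of 13.9, 15.2 and 17. The summed signal was 111 to 323 on the donor arrays, 116 to 386 on the no LIF arrays and 153 to 434 on the LIF arrays. It was lowest on the alike pair, at 111 and 116, and also without Pdgfrb and Thy1. Of 8 endothelial markers, 7 were tested and 0 called, with sums of 180.4 to 633 on the donor arrays, 162 to 626 on the no LIF arrays and 323 to 756 on the LIF arrays. Pecam1, which stem cells express too, and Eng were the brightest of these. Endothelial sums too were lowest on the alike pair, with Pecam1 and Eng or without them. That pair held the 2 lowest signals in 4 of 7 endothelial genes. The summed signal of embryonic stem cell markers was 16661, 12783 and 17077 on donor replicates 1 to 3, 18346, 27913 and 20508 on no LIF replicates 1 to 3, and 20753, 15695 and 23265 on LIF replicates 1 to 3. Thus the alike pair, lowest for every member, held mid-range sums of stem cell markers, also without Dppa5a and Tdgf1, at 7892 and 8627 on that pair against 6205 to 12992 over all 9 arrays. Of the 8 genes 2, Esrrb and Sox2, had the alike pair as their 2 lowest arrays. Pou5f1 went the other way and was highest on that pair. It read 3044 on donor replicate 3 and 3211 on no LIF replicate 1, against 958 to 2562 on the rest. The stem cell genes Dppa5a and Tdgf1 were bright on all 9 arrays, at 5137 to 9249 and 1441 to 5672. The part of each of these cell types in the members' signals was not tested.

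In the group comparisons, the medians of these lists are set beside those of all tested probe sets, which were -0.10, 0.08 and 0.02 for no LIF against LIF, for the donor against no LIF and for the donor against LIF. In the same order, the medians were -0.56, 0.17 and -0.45 for primitive and parietal endoderm, -0.77, 0.25 and -0.37 for visceral endoderm, and -0.48, 0.12 and -0.66 for endothelium. They were -0.08, -0.08 and -0.14 for fibroblasts and 0.18, -0.41 and -0.32 for stem cell markers, of which 8 were tested and 0 called. The receptors had -0.43, 0.17 and -0.29, and the other collagen-modifying genes -0.16 for the donor against no LIF and -0.49 for the donor against LIF. With limma a list held at most 2 genes at an unadjusted p under 0.05 in any comparison.

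RefSeq promoter windows were matched for 8 of 10 members, all but Lama1 and Lamc1. The share of G and C was 55.3% for Sparc to 74.0% for Col4a1, against a median of 52.7% over 32851 mouse promoter windows of the same 300 bases. Motifs were searched as exact letters on both strands. The GC box GGGCGG occurred in 7 of 8 windows, all but that of Sparc, and in 35.7% of all windows. The 1 match in the Col4a1 window lies in the bases shared with Col4a2, so that site counts for both windows. CCAAT occurred in 4 of 8, those of Col4a1, Col4a2, Lamb1 and Nid1, and in 37.4% of all. ACGTG, 1 form of the core bound by hypoxia-inducible factors, occurred in 2 of 8, those of Serpinh1 and P4ha2, and in 19.6% of all. The form GCGTG was not searched, and the windows of Col4a1 and Col4a2 printed above hold it. A GATA motif, the letters GATA with A or T before them and A or G after them, was found in 0 of 8 windows and in 29.8% of all, and TATAAA in 0 of 8 and in 13.6% of all. These matches describe letters in the windows only.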

How the data were processed

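Signal intensities of 9 Affymetrix Mouse Genome 430 2.0 arrays were deposited on a linear scale. The authors used GeneChip Operating System 1.4.0.036 with global scaling, per the labels' design text, and MAS5 is named in the submitters' processing notes. The 2% trimmed mean of each deposited column was 100.0. Array medians of 13.9 to 23.3 and 3 arrays per group limit the precision.

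From these, log2(signal + 3) was computed, which understates changes of dim probe sets, and 64 control probe sets were left out. A probe set was tested if its signal reached the 40th percentile on 3 or more arrays, which left 29811. All 3 comparisons came from 1 fit in limma 3.58.1 (R 4.3.3; lmFit, eBayes with trend, two-sided), with Benjamini-Hochberg adjustment over all tested probe sets at 0.05. The fit was tested on simulated data with known changes, at the spread of these arrays and at that spread divided by 3. Recovery was required only at the smaller spread, and how often changes are found at the full spread is not given. Probe sets were named by the platform annotation where it gives 1 symbol, the brightest tested one standing for the gene. Members, lists and alternatives were chosen with earlier results of these data known. Named genes are all members, the 2 brightest of each list and the 10 most similar genes. Gata6, Pdgfra, Smoc2, Col4a6, Lamc3 and the further marker genes named were chosen after their values were seen. These further markers are Afp, Ttr, Apoa1, Apob, Rbp4, Postn, Lum, Dcn, Col1a1, Col1a2, Col3a1, Col5a2, Col6a1, Pou5f1, Esrrb and Sox2. Socs3 is a check of the labels. Promoters came from RefSeq, GRCm38.p6, and were searched with Python 3.11.15.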

Additional observations from a re-analysis of the deposited data

How the results depend on the processing

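Alternatives were the pseudocount (1 or 16), a filter at the 60th percentile or none, quantile normalization, median centring, no variance trend, only the 2 groups compared, the replicate block, a brightness block, the second probe set, and fits leaving out 1 array at a time, both doubted replicate 2 arrays or the alike pair. Among 651 recomputed member gene values, 618 kept their direction, 33 reversed and 0 passed the threshold (smallest limma adjusted p = 0.419). Many of the 618 could not have reversed. The filters, the variance trend, the replicate block and the fit of only the 2 groups compared leave a log2 difference unchanged. So does leaving out an array of the group not compared. Called probe sets stayed at 0 in every setting, for members and for all.

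Same-numbered arrays deviated from their group means with correlations of -0.60 to 0.65, so the passage number was not taken as pairing them. With the replicate block, called probe sets numbered 0 in all 3 comparisons.

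Member probe sets without overlap, in either direction, are given with the share of all tested probe sets in the same setting, which is higher where groups are smaller. They numbered 0 for no LIF against LIF (7.6%), 1 with quantile normalization (7%), 8 without both doubted arrays (45.4%) and 0 to 6 with 1 array left out (7.6% to 26.5%). For the donor against no LIF they numbered 1 (8.92%), 0 with the 60th percentile filter (7.84%) or quantile normalization (8.89%), 3 without both doubted arrays (14.6%), 9 without the alike pair (49.7%) and 1 to 8 with 1 array left out (8.92% to 35.7%). For the donor against LIF they numbered 5 (5.98%), 13 without both doubted arrays (18.1%) and 5 to 13 with 1 array left out (5.98% to 18.1%). Members at an unadjusted p under 0.05 numbered 0 to 3 for the donor against no LIF over the fits with 1 array left out (1.63% to 14.4% of all). The median log2 difference ran from -1.64 to -0.30, -1.01 to 0.19 and -1.78 to -0.89 in these comparisons.

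For the donor against no LIF, signs reversed without both doubted arrays for Col4a1 (0.13), Lamc1 (0.02) and Nid1 (0.30), with median centring for Hspg2 (-0.09) and Lamb1 (-0.09), with the brightness block for Hspg2 (-0.75), and with the second probe set for Hspg2 (-0.44), Lamc1 (0.27) and Nid1 (0.50). Without the alike pair Hspg2 (0.04) and Lamb1 (0.06) reversed for the donor against LIF, and Nid1 (0.28) and P4ha2 (0.52) for no LIF against LIF. With 1 array left out, the donor against no LIF ranged over -0.87 to 0.42 for Col4a1, -1.03 to 0.32 for Col4a2, -0.76 to 0.99 for Hspg2, -0.10 to 0.44 for Lamb1, -0.99 to 0.06 for Lamc1 and -2.01 to 0.48 for Nid1. The donor against LIF ranged over -1.37 to 0.04 for Hspg2 and -0.50 to 0.28 for Lamb1, and no LIF against LIF over -0.64 to 0.14 for Lamb1, -2.03 to 0.28 for Nid1 and -1.29 to 0.52 for P4ha2. The cause was not tested.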
